A study of Mus musculus with 10 samples.

Results

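The proteasome genes of mouse pancreatic islets were described here as 49 genes of the 17945 named in the deposited table. They were selected on their symbols, Psma to Psmg followed by a number, together with Pomp, Adrm1 and Psme4. The family itself was chosen because Psmd13, a gene of the proteasome lid, had high values in the knockout libraries, so the values of Psmd13 and the contrast between the groups are given below as a description and not as a finding. Islet RNA had been sequenced in 10 libraries from 18-week-old C57BL/6 mice, 5 labelled floxed control and 5 labelled knockout, and the series title links Grk5, a kinase of G protein-coupled receptors, to the proliferation of β cells. Knockout animals carried the inducible driver Pdx1-CreER, in which Cre is fused to a part of the estrogen receptor and expressed from the Pdx1 promoter, on top of 2 floxed Grk5 alleles, and controls were described as Grk5 flox/flox without the driver. By that description both groups shared the floxed alleles and only the knockouts carried the Cre. Esr1 was also high in 2 controls, as given below, and the reason was not tested. The Pdx1 promoter is active mainly in β cells of the adult pancreas, while the RNA came from whole islets. Treatment with an inducer, the sex of the animals and whether each library stood for a separate animal are not given in the sources used here. Libraries are called control 1 to 5 and knockout 1 to 5 in the order of their accession, which does not pair them.

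The proteasome degrades proteins that carry ubiquitin chains. Its core is a barrel of outer α rings and inner β rings, and Psmb5, Psmb6 and Psmb7 encode the β subunits that cut peptide bonds. A cap sits on the barrel: its base holds the ATPases encoded by the Psmc genes, which unfold the substrate and thread it into the core, and its lid removes the ubiquitin. Interferon signalling replaces the catalytic subunits with those encoded by Psmb8, Psmb9 and Psmb10, which form the immunoproteasome and favour peptides for display to T cells. When proteasome activity falls short, the transcription factor encoded by Nfe2l1 drives the subunit genes together through antioxidant response elements, and insulin-producing cells carry a heavy load of protein synthesis.

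Of the 49 members, 14 encode constitutive core subunits (7 of the α ring and 7 of the β ring), 10 the base, 8 the lid, 8 assembly chaperones, 4 activator caps, 1 an inhibitor and 4 the catalytic subunits of the immunoproteasome or thymus. The tests covered genes that reached 10 normalized counts in 5 or more libraries, 11711 in all and 46 of the members. Psmb8 only just met this, in 5 libraries, while Psmb11 reached it in 2 and Psmb9 and Psmb10 in 1 each, and these 3 are given as values without a test. Normalized counts are the authors' values on a common scale between libraries, and those of a group are listed below in the order of libraries 1 to 5.

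The promoters of 42 members were found among the RefSeq promoters of GRCm38.p6, some with more than 1 start site, which gave 45 windows of the 250 bases before a start. The other 7, Psmb1, Psmb2, Psmb7, Psmc3, Psmd3, Psmd7 and Psmg2, had no entry. Both strands were searched for 5 short motifs, and a match to one may overlap a match to another. TGACNNNGC, the core of the antioxidant response element, occurred in 6 of the 45 windows (13.3%), against 10.2% of all 32851 promoters of that length. Windows of 5 members are shown because Nfe2l1 acts on proteasome genes through this element. The match is in capitals, on either strand, and the window of Adrm1, which also held one, is not shown.
Psmb5 (chr14:54618023-54618052, minus strand): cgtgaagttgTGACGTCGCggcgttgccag
Psmb6 (chr11:70525327-70525356, plus strand): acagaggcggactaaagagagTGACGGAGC
Psmc6 (chr14:45329587-45329616, plus strand): ccagccagtaGCTAAGTCAggcattgctca
Psmd12 (chr11:107479278-107479307, plus strand): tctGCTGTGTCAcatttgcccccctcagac
Psmd9 (chr5:123228149-123228178, plus strand): atctagccggTGACCCCGCccacttccaag
The matches of Psmb5, Psmb6 and Psmd9 lay within 57 bases of the start and those of Psmd12 and Psmc6 farther off. The letters CCGGAAG, an ETS-type motif, were in 14 of the 45 windows (31.1%), from 13 members, and in 6.91% of all promoters. The promoters compared were not matched to the members in base composition, so the higher share cannot be read as particular to proteasome genes. CCAAT was in 15 windows (33.3%, against 33.8% of all promoters), TTCNNNGAA, a STAT-type palindrome, in 2 (4.44%, against 7.02%) and GAAANNGAA, an interferon response type, in 3 (6.67%, against 7.13%). The next 5 sequences belong to members on which the results below turn, with a match in capitals: the ETS-type motif in Pomp, the STAT-type palindrome in Psmb8, and CCAAT, read from the other strand, in Psmd10 and Psmb9.
Psmd13 (chr7:140882364-140882393, plus strand): agcatgccccgcgcgcccgcggtgccggaa
Psmd10 (chrX:140956729-140956906, minus strand): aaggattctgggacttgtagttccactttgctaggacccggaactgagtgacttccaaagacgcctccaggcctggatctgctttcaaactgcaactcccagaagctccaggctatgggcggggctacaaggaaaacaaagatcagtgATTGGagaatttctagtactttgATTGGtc
Pomp (chr5:147860561-147860590, plus strand): cctggCCGGAAGgacgcaCTTCCGGcggat
Psmb8 (chr17:34198088-34198117, plus strand): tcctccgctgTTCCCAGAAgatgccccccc
Psmb9 (chr17:34187331-34187360, minus strand): cctgcaccgcgcgcagccgctgATTGGaaa
The window of Psmd13 held none of the 5 motifs and is printed for its last 30 bases before the start. Psmd10 had 2 of its 3 CCAAT matches within 47 bases of the start, and Pomp had 2 ETS-type matches on opposite strands. By the GENCODE annotation, which also has starts farther upstream, the 250 bases before the RefSeq start of Psmd13, Psmb8 and Psmb9 lie within exons of the same gene, and 166 of those of Psmd13 also within exons of Sirt3. For Psmb9, 28 of them also lie within exons of Tap1. The last 167 bases before the start of Pomp lie within its own exons, and these hold both of its ETS-type matches. A match of letters is a description and not a binding site.

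Normalized totals ran from 5534386 to 7358040, and the number of genes above 0 from 10222 in knockout 1 to 14632 in knockout 3. If the commonest low value of a library stands for 1 read, knockout 1 was the shallowest, at 2072839 reads. Grk5 itself, the targeted gene, was 197.0, 165.0, 386.9, 331.8 and 127.9 in the controls and 269.8, 129.9, 94.4, 207.0 and 105.5 in the knockouts, so the groups overlapped (log2 difference -0.55 ± 0.42 (SE)). Esr1, the source of the estrogen receptor part of CreER, was at 1516.7 or more in every knockout and at 10.5 or less in controls 1, 3 and 4, but at 2495.0 in the library labelled control 2 and 773.5 in the library labelled control 5. Values without these 2 controls are also given for several members below. In bulk islet RNA, fewer cells of a type and less RNA per cell cannot be told apart. The islet cell markers were present throughout, with the 10 genes summing to between 1049455 and 1382239 per library.

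Proteasome genes were expressed over a wide range of levels. Per kilobase of exon, the mean over 10 libraries was highest for Psmc5, an ATPase of the base, at 283 ± 121 (SD, n = 10) normalized counts. It was followed by Psma6 of the α ring at 212 ± 64.2, Psmb6 of the β ring at 200.1 ± 50.6, and the lid genes Psmd7 at 192 ± 29.3 and Psmd12 at 170 ± 34.3 (SD, n = 10 each). Each of these 5 differed from the next by less than its spread over libraries. The median per kilobase was similar for the stoichiometric parts of the particle: 115 for the α ring, 111 for the β ring, 109 for the ATPases, 125 for the other base subunits and 84.5 for the lid. Chaperones of core assembly, which leave the finished particle or are consumed by it, had a median of 38.3, and those of base assembly 24.1. The activator caps had a median of 110 and the 4 immunoproteasome or thymus subunits one of 4.41. Among tested members the highest level per kilobase was 42.3 times the lowest, that of Psmb8. The order depended on the length used: with the longest transcript, Psmb6 came first at 388, then Psmd6 at 316 and Psmc5 at 283, and Psmb6 was 37.6 times the lowest, Psmg3.

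**Figure D1:**
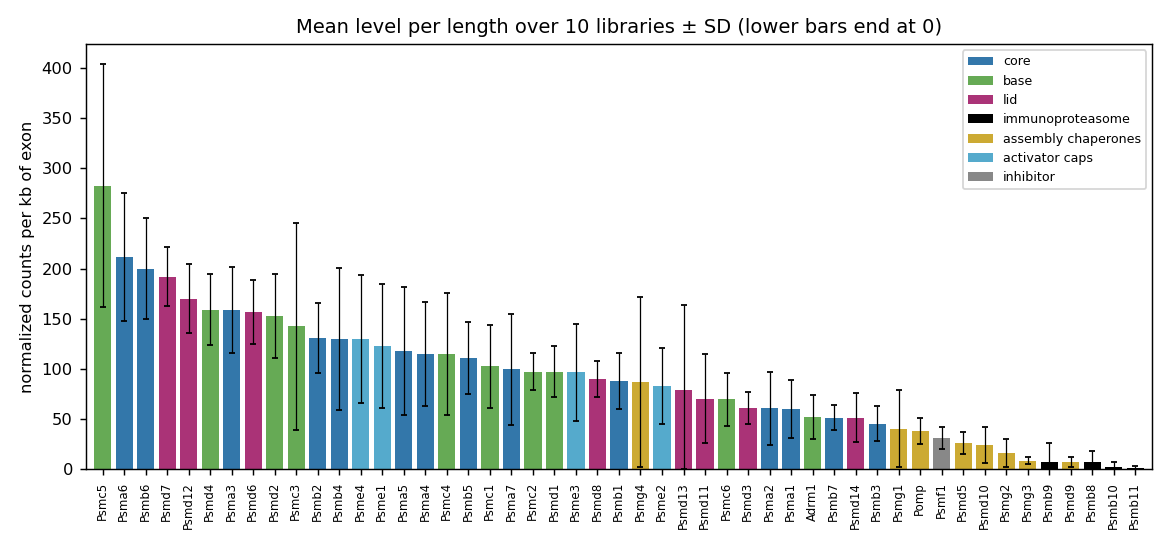
Mean normalized counts per kilobase of exon over 10 libraries for all 49 proteasome genes, coloured by the part of the particle, with bars of 1 SD (lower bars end at 0). Psmc5 stands highest at 283, and the 4 immunoproteasome and thymus subunits are among the lowest.

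No proteasome gene passed the test between the groups. Of 11711 genes, limma called 0 (0%) at an adjusted p under 0.05, and so 0 of the 46 tested members. An unadjusted p below 0.05 was found for 587 genes (5.01%), 276 higher in the knockouts (2.36%) and 311 lower (2.66%). Members at that level were Psmd13, Psma4 and Psmd10 on the higher side and Psmg4 on the lower side, 4 of 46 (8.70%). The family was chosen from this same contrast, so nothing is read from that count. The 5 control and 5 knockout values did not overlap for 101 of all tested genes (0.862%), and among members for Psmd13, Psmd10 and Pomp, higher in the knockouts, and Psmd3, lower. The mean log2 value was higher in the knockouts for 26 members and lower for 20 (28 and 18 by mean normalized count), where 47.6% of all tested genes were higher. The median log2 difference was 0.08 over the members and -0.03 over all tested genes. Without knockout 1 the median over the members was -0.02 and the number of members higher was 22. The estimates of 33 of 46 members (71.7%) were within 0.5 of 0 on the log2 scale, against 63.1% of all tested genes. The members were not matched to those genes in level or spread. Some estimates near 0 also had a large SE, such as 0.79 for Psmg1 and 0.63 for Psma2. All differences are on the scale of log2(value + 8), which draws the values of low genes together.

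**Figure D2:**
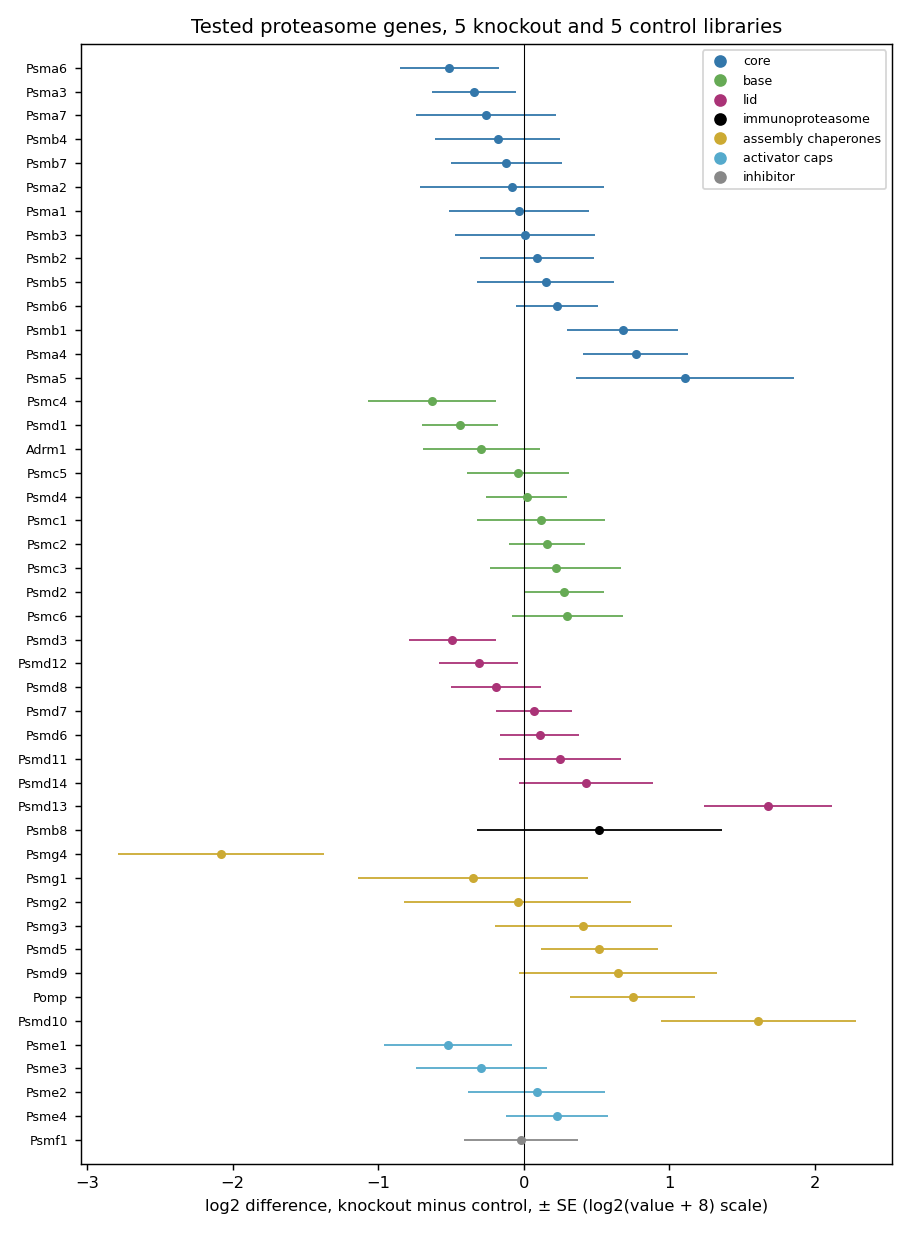
Log2 difference, knockout minus control, with its SE for the 46 tested proteasome genes, on the log2(value + 8) scale and ordered by the part of the particle. Points spread on both sides of 0 in each part with more than 1 gene, with Psmd13 at 1.68 and Psmg4 at -2.08 farthest out.

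In the α ring, which gates entry to the core, 2 of 7 genes were higher in the knockouts and 5 lower by mean log2 value, with a median log2 difference of -0.08. By mean normalized count, and in the authors' deposited table, 5 were higher and 2 lower, with Psma1, Psma2 and Psma7 of opposite sign between the scales. Psma4 was 161.7, 290.2, 168.3, 140.0 and 218.5 in the controls and 374.8, 298.9, 173.1, 508.9 and 387.7 in the knockouts. Of the knockouts 4 lay above all controls and knockout 3 among them, and the log2 difference was 0.77 ± 0.36 (SE). Psma5 was 0.0, 108.4, 176.0, 83.6 and 276.8 in the controls and 134.9, 231.9, 113.4, 190.6 and 245.9 in the knockouts. Its difference of 1.11 ± 0.75 (SE) rested on control 1, which was listed at 0, and was 0.26 without that library and 1.84 without controls 2 and 5. The groups overlapped widely for this gene. The other 5 genes ran from -0.51 ± 0.34 (SE) for Psma6 to -0.03 ± 0.48 (SE) for Psma1. Psma2 was scattered inside both groups, with knockout 4 at 21.2 and knockout 5 at 430.5.

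In the β ring 5 of 7 genes were higher and 2 lower, with a median of 0.09. Psmb1, a β subunit without catalytic activity, was 438.5, 294.3, 405.6, 442.1 and 87.5 in the controls and 525.4, 484.8, 476.7, 498.7 and 387.2 in the knockouts. Control 5 stood below all the others, and the difference of 0.68 ± 0.38 (SE) was 0.27 without it and 0.14 without controls 2 and 5. Psmb5, which carries the chymotrypsin-like activity, was 128.0, 105.4, 59.3, 83.6 and 88.1 in the controls and 74.5, 96.4, 65.9, 150.6 and 144.6 in the knockouts. Psmb6, with the caspase-like activity, was 359.2, 343.3, 372.3, 320.9 and 297.6 in the controls and 628.9, 356.3, 363.1, 303.8 and 400.7 in the knockouts. Psmb7, with the trypsin-like activity, was 221.3, 230.7, 159.1, 188.9 and 118.1 in the controls and 113.5, 211.8, 151.1, 145.9 and 218.7 in the knockouts. All 3 catalytic genes overlapped between the groups, with log2 differences of 0.15 ± 0.47, 0.23 ± 0.28 and -0.12 ± 0.38 (SE). Over the 14 core genes, the mean log2 value per library was 7.69 ± 0.22 (SD, n = 5) in the controls and 7.80 ± 0.25 (SD, n = 5) in the knockouts.

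The 10 base genes showed 6 higher and 4 lower means, with a median of 0.07 that fell on either side of 0 when single knockouts were left out (-0.07 to 0.08). Among the ATPases, Psmc4 had the lowest difference, -0.63 ± 0.44 (SE), and Psmc6 the highest, 0.30 ± 0.38 (SE). Psmc3 and Psmc5 were both highest in knockout 1, at 1036.9 and 738.3. Without that library the knockout means were 291 ± 197 and 307 ± 55 (SD, n = 4), against control means of 302 ± 104 and 394 ± 157 (SD, n = 5). Psmd1, a scaffold of the base, was -0.44 ± 0.26 (SE), with control means of 804 ± 148 and knockout means of 607 ± 172 (SD, n = 5 each). The ubiquitin receptors Adrm1 and Psmd4 were -0.29 ± 0.40 and 0.02 ± 0.28 (SE), and Psmd2, which docks shuttle proteins, was 0.28 ± 0.27 (SE). The mean over base genes per library was 8.45 ± 0.11 in the controls and 8.42 ± 0.21 in the knockouts (SD, n = 5 each, log2).

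The lid held the gene that led to the choice of the family. Psmd13 (ENSMUSG00000025487.15, chromosome 7 from 140881968 to 140898643, plus strand, GRCm38) encodes a scaffold subunit of the lid. Its values were 75.3, 83.9, 128.5, 152.8 and 93.5 in the controls and 1033.6, 275.7, 191.6, 374.2 and 249.4 in the knockouts. Every knockout lay above every control, from 191.6 upward against 152.8 at most, and knockout 1 stood far above the other 4. Means were 107 ± 32.7 and 425 ± 347 (SD, n = 5 each), with a log2 difference of 1.68 ± 0.44 (SE), and of 1.55 without controls 2 and 5. Without knockout 1 the knockout mean was 273 ± 76.2 (SD, n = 4), which was 2.55 times the control mean, and the log2 difference 1.30. The authors' deposited table gives Psmd13 a log2 fold change of 1.95 with SE 0.477 and an adjusted p of 0.0352, the only member among the 19 of 13931 genes (0.136%) below 0.05 there.

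Exons of Psmd13 overlap those of Sirt3, a mitochondrial deacetylase gene on the opposite strand. Sirt3 was 0.0, 10.3, 17.5, 16.4 and 11.7 in the controls and 127.7, 9.4, 44.9, 11.1 and 67.5 in the knockouts. It was also highest in knockout 1, but overlapped between the groups (1.33 ± 0.72 (SE)). The kit kept the strand per the labels' protocols, but no source used here says whether the counting did. Without it, reads in the overlapping stretch cannot be assigned to either gene.

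The 7 other lid genes gave 4 higher and 3 lower means, with a median of 0.07. Psmd3, a structural lid subunit, was 286.7, 470.7, 396.1, 327.9 and 299.7 in the controls and 208.8, 235.3, 244.1, 286.6 and 271.9 in the knockouts. The groups met without overlapping, at 286.6 in knockout 4 and 286.7 in control 1, and the log2 difference was -0.49 ± 0.30 (SE). Psmd14, the deubiquitinase of the lid, was 0.43 ± 0.46 (SE), and its partner Psmd7 was 0.07 ± 0.26 (SE). Psmd11 was highest in knockout 1, at 1127.8, and its difference of 0.25 ± 0.42 (SE) turned to -0.09 without that library. Psmd12 was -0.31 ± 0.27, Psmd8 -0.19 ± 0.31 and Psmd6 0.11 ± 0.27 (SE). The mean over the 8 lid genes was 8.17 ± 0.10 in the controls and 8.36 ± 0.26 in the knockouts, and over the 7 without Psmd13 it was 8.37 ± 0.08 and 8.35 ± 0.21 (SD, n = 5 each, log2). Without Psmd13, the lid mean was not higher in the knockouts.

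**Figure D3:**
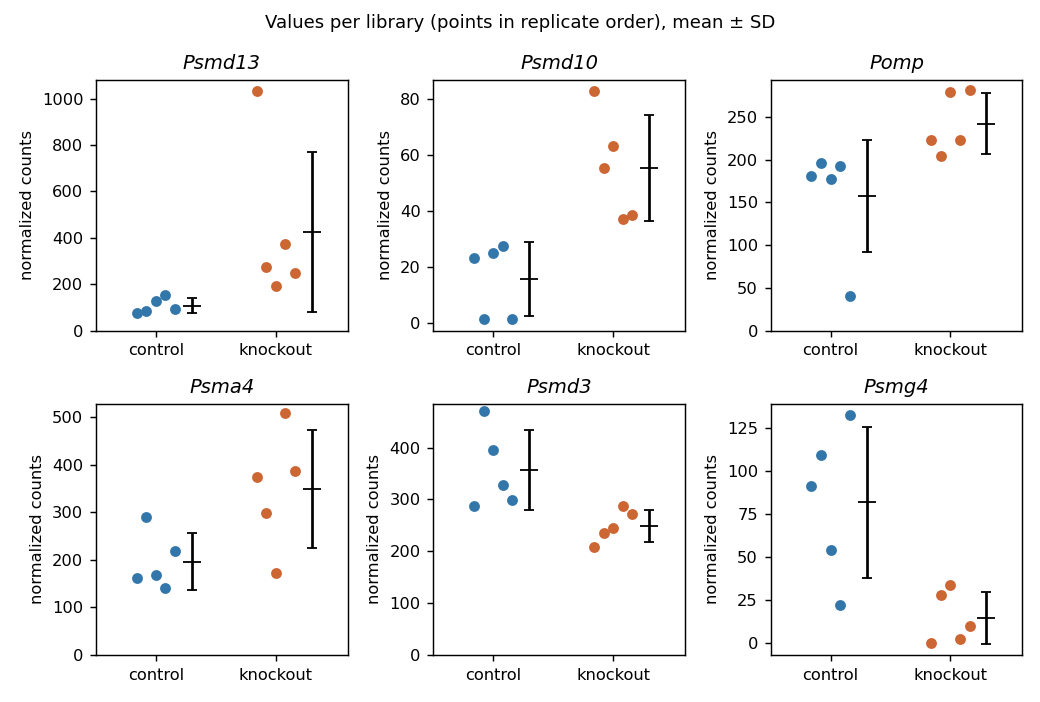
Normalized counts in each of the 5 control and 5 knockout libraries for 6 proteasome genes, in replicate order within a group, with mean and SD beside the points. Psmd13, Psmd10 and Pomp do not overlap and are higher in the knockouts, Psmd3 does not overlap and is lower, and Psma4 and Psmg4 overlap.

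The chaperones that build the base were higher in mean in the knockouts for 3 of 3 genes, with a median of 0.65. Psmd10, also known as gankyrin, was 23.3, 1.5, 24.8, 27.4 and 1.3 in the controls and 82.7, 55.2, 63.0, 36.9 and 38.5 in the knockouts. All knockouts lay above all controls, and the 2 controls near 0 were controls 2 and 5, the ones with high Esr1. The log2 difference was 1.61 ± 0.67 (SE) and was 0.88 without those 2 controls. Psmd9 was 37.4, 123.0, 10.8, 39.3 and 11.6 in the controls and 85.6, 30.9, 91.7, 46.8 and 41.3 in the knockouts. It overlapped, with control 2 the highest of all (0.65 ± 0.68 (SE)). Psmd5 was 0.52 ± 0.40 (SE), with means of 163 ± 95.4 and 219 ± 54.9 (SD, n = 5 each).

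The chaperones of the core were higher in mean for 2 genes and lower for 3, with a median of -0.04. Pomp, which guides maturation of the β ring, was 181.1, 195.9, 177.1, 193.0 and 40.5 in the controls and 223.6, 204.0, 279.5, 223.5 and 281.7 in the knockouts. The groups did not overlap, but the lowest knockout stood only slightly above control 2, and control 5 was far below the other controls. The difference of 0.75 ± 0.43 (SE) was 0.35 without control 5 and 0.37 without controls 2 and 5. Psmg4, which acts with Psmg3 in forming the α ring, was 91.5, 109.7, 54.1, 22.3 and 132.5 in the controls and 0.0, 27.7, 33.8, 2.6 and 10.1 in the knockouts. It was lower in mean, 14.9 ± 15.1 against 82.0 ± 44.0 (SD, n = 5 each), and overlapped through control 4. Its log2 difference of -2.08 ± 0.71 (SE) depended on the pseudocount, at -3.08 with 1 and -1.24 with 32, and was -1.61 without controls 2 and 5. Psmg3 was 0.41 ± 0.61, and the other pair, Psmg1 and Psmg2, -0.35 ± 0.79 and -0.04 ± 0.78 (SE). Psmg1 turned to 0.17 without controls 2 and 5. Over the 8 chaperones the median difference was 0.46 and the mean per library 5.72 ± 0.23 in the controls and 5.90 ± 0.31 in the knockouts (SD, n = 5 each, log2).

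**Figure D4:**
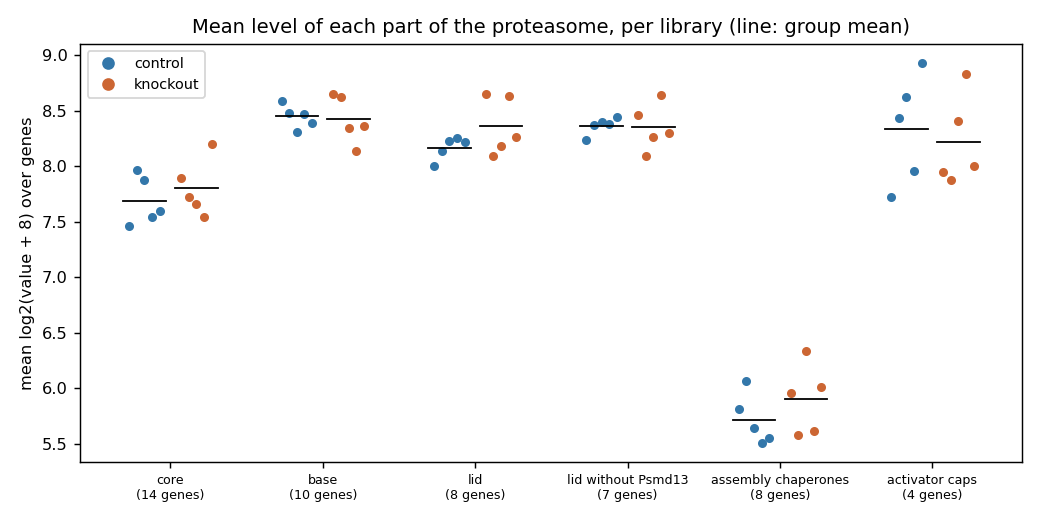
Mean log2(value + 8) over the genes of each part of the proteasome, 1 point per library, with a line at the group mean. The lid lies higher in the knockouts with Psmd13 (8.36 against 8.17) and not without it (8.35 against 8.37), and the groups overlap in each part.

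Activator caps open the core without ubiquitin. Psme1 and Psme2, which form the interferon-inducible cap, were -0.52 ± 0.44 and 0.09 ± 0.47 (SE), and control 2 stood above the rest for Psme1, at 579.7. Its difference was -0.29 without controls 2 and 5 and -0.13 without knockout 1. Psme3, which forms a nuclear cap, was -0.29 ± 0.45 (SE) and turned to 0.07 without controls 2 and 5, and Psme4 0.23 ± 0.35 (SE). The mean over the 4 genes ranged between 7.72 and 8.93 in the controls and between 7.88 and 8.83 in the knockouts (log2). Psmf1, a proteasome inhibitor, was -0.02 ± 0.39 (SE).

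The immunoproteasome genes were low in most libraries and highest in knockout 1. Psmb8, the counterpart of Psmb5, was 0.0, 14.1, 18.2, 12.8 and 0.0 in the controls and 115.2, 0.0, 0.0, 0.0 and 65.6 in the knockouts. Its difference of 0.52 ± 0.84 (SE) turned to -0.11 without knockout 1 and to -0.18 with library weights. Psmb9, the counterpart of Psmb6, was 0.0, 2.2, 5.8, 4.9 and 0.0 in the controls and 227.3, 1.6, 9.8, 6.8 and 8.5 in the knockouts. Psmb10, the counterpart of Psmb7, was listed at 0 in every control and was 28.4, 5.6, 0.0, 2.4 and 0.0 in the knockouts. Knockout 1 led for all 3. Psmb11, a subunit of the thymus, was 0.0, 0.0, 3.6, 0.0 and 5.9 in the controls and 0.0, 0.0, 14.8, 0.0 and 26.4 in the knockouts.

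Per kilobase of exon, each constitutive subunit was above its counterpart in 10 of 10 libraries. Psmb8 made up 0.0% to 7.5% of the Psmb5 and Psmb8 pair in the controls, 29.1% in knockout 1 and at most 10.8% in the other knockouts. Psmb9 made up 0.0% to 0.8% of its pair in the controls, 15.6% in knockout 1 and at most 1.4% in the others. Psmb10 was at 0.0% in the controls, 33.4% in knockout 1 and at most 5.0% in the others. With the longest transcript as the length, the shares in knockout 1 were 42.1%, 10.8% and 35.2%. These shares have no interval, since the reads behind them are not known.

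**Figure D5:**
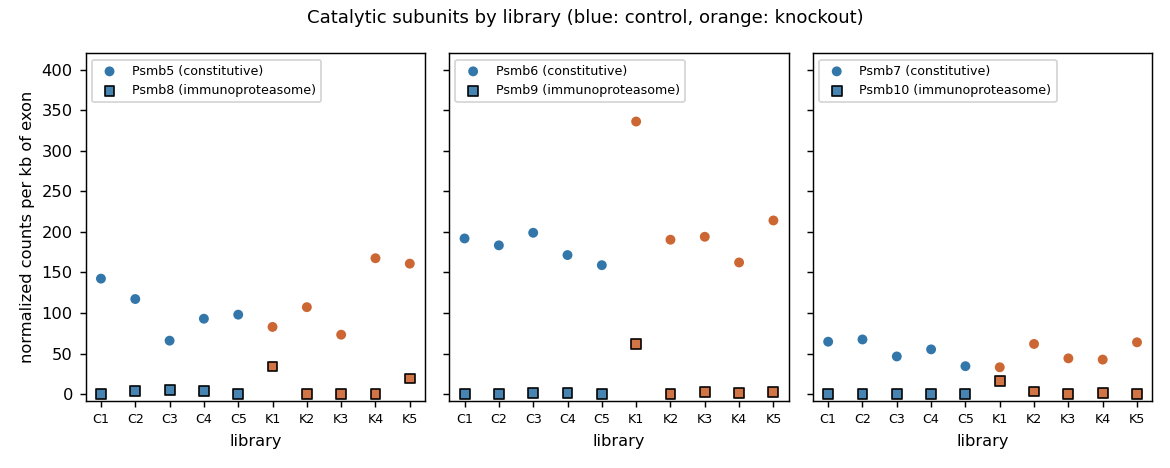
Normalized counts per kilobase of exon for the 3 constitutive catalytic subunits (circles) and their immunoproteasome counterparts (squares) in control libraries C1 to C5 and knockout libraries K1 to K5. The circles lie above the squares in each library, and the squares stand highest in K1.

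Other genes of antigen display were high and low in knockout 1. Values there were 465.0 for the peptide transporter gene Tap2, above all other libraries, but 20.3 for Tap1, below all others, and 0.0 for Tapbp, which loads peptides onto class I molecules. B2m, the light chain of those molecules, was 252.0, above knockout 5 alone. Exons of Tap1 overlap those of Psmb9 on the opposite strand. Of 9 immune cell markers in the table, Ptprc, Csf1r, Tyrobp, Cd3e and Emr1 were at 0 in knockout 1, while Cd68 was 76.7, Lyz2 78.1 and Laptm5 48.9. These zeros were not particular to knockout 1. Emr1 was above 0 in 1 library, Cd3e in 2 and Tyrobp in 4, and Ptprc was also at 0 in control 1 and Csf1r in control 5. Cd68 and Laptm5 were highest in knockout 1, above 43.4 in knockout 2 and 40.6 in control 1. Lyz2 was slightly higher in knockout 4, at 80.0. Cd79a was 21.3 in knockout 1, inside its range from 0.0 in knockouts 2 and 3 to 72.9 in knockout 4. The 9 summed to 224.9 in knockout 1, between 123.0 and 184.0 in the controls and between 107.0 and 785.2 in the other knockouts, the last in knockout 4 through Ptprc at 585.0. The part of immune cells and of the low depth of knockout 1 in these values was not tested.

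The members varied less between libraries than most genes, at higher levels. The median SD within groups was 0.620 on the log2 scale over 46 members, at a median level of 7.84, and 0.835 over all tested genes, at 6.91. The lid was the steadiest, with a median of 0.292, and Psmd7 had the smallest SD, 0.21. The core was at 0.499, the base at 0.558, the activator caps at 0.724 and the chaperones at 0.840. Knockout 1 was the highest of 10 libraries for 26.1% of tested members and for 16.0% of all tested genes, and the lowest for 17.4% and 24.0%. The 49 members summed to 16844 normalized counts there, and to between 11657 and 13709 in the other 9 libraries. Knockout 1 also had the highest normalized total over all genes, 7358040, against 5534386 to 6793172 in the others. The sums were not scaled to these totals, so they do not show a larger share of proteasome RNA in knockout 1.

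Correlations between proteasome genes across the 10 libraries centred near 0. The median Pearson r over 1035 pairs of tested members was 0.001, with 519 pairs above 0, and 0.009 over all tested genes. By part it was 0.019 in the core, -0.008 in the base, -0.033 in the lid, 0.099 among the chaperones and 0.241 among the activator caps. Psmd13 had a median r of 0.10 with the 45 other members, from -0.92 with Psmg4 (Spearman -0.89) to 0.75 with Psmd10 (Spearman 0.84). Leaving out the 2 libraries farthest from the median of Psmd13 gave -0.92 and 0.82. These extremes were taken from the whole list, and the groups differ in mean for all 3 genes, so they are a description over libraries that share their depth and labels.

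Regulators and partners of the proteasome gave counts near even. Of 21 tested, 10 were higher and 11 lower, none passed, and the median was -0.01. The 21 included the lid subunit gene Sem1, listed as Shfm1, at -0.33 ± 0.32 (SE). Its symbol is outside the selection, so it is absent from the lid values above. Nfe2l1 was -0.10 ± 0.23 (SE), with means of 1946 ± 575 and 1815 ± 561, and Nfe2l2, which encodes the regulator of the oxidative stress response, was -0.13 ± 0.37 (SE), with means of 228 ± 56.1 and 215 ± 74.7 (SD, n = 5 each). Ngly1, whose enzyme removes glycans and thereby activates the Nfe2l1 protein, was 48.1, 3.4, 30.9, 120.6 and 152.9 in the controls and 397.0, 94.7, 83.1, 136.7 and 129.0 in the knockouts. It overlapped, with knockout 1 highest, at 1.44 ± 0.69 (SE). The shuttle genes Ubqln4 and Ubqln1 were -0.91 ± 0.53 and -0.34 ± 0.22 (SE), and Ubqln1 did not overlap, with knockouts at 485.5 to 593.5 and controls at 637.0 to 809.9.

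Among 6 genes of ubiquitin and its activation 2 were higher and 4 lower, none passed, and the median was -0.10. The polyubiquitin gene Ubb was -0.12 ± 0.10 and Uba6, an activating enzyme, -0.79 ± 0.45 (SE). Of 10 antigen presentation genes 3 were higher and 7 lower, none passed, and the median was -0.20. The class I gene H2-K1 was -0.99 ± 0.34 (SE), Tapbp -1.35 ± 0.84 (SE) and Nlrc5, the transactivator of class I genes, 1.38 ± 0.65 (SE). The 6 tested immune markers gave 2 higher and 4 lower means (median -0.05), the 6 endothelial markers 6 higher (median 0.35), the 12 acinar markers 12 lower (median -0.94) and the 10 islet markers 10 lower (median -0.17), none of which passed. Acinar markers summed to between 19770 and 260372 in the controls and between 29112 and 81827 in the knockouts. With their mean as a covariate, Psmd9 was 0.27, Psma4 0.43 and Psmb4 -0.68, while Psmd10 was 1.98, Psmd5 0.86 and Psmd13 1.62. Adrm1 turned to 0.10, Psmc6 to -0.02 and Psmd11 to -0.17, and the median over the chaperones was 0.28.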

How the data were processed

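The data were islet RNA sequencing libraries, 5 control and 5 knockout, made with a stranded random-primed kit after removal of ribosomal RNA, per the labels' protocols. STAR 2.4.0.1, HTSeq and DESeq2 are listed, without a role, per the submitters' processing notes. No source used here gives the genome build or annotation. The deposited table holds normalized counts per gene, a signal unit, and the authors' comparison of the groups, as log2 fold changes with SE, a test score and p-values with adjusted p-values. One row in 17946 had no gene name (0.00774% to 0.0251% of a library) and was left out. Between 24.8% and 36.2% of the values in a library were whole multiples of its commonest low value (tolerance 0.01), so whole reads could not be recovered and no count model was run. Depth in reads is therefore not known exactly, and no counting interval is given.

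Values were taken as log2(value + 8) for genes at 10 or more in at least 5 libraries and compared with limma 3.58.1 in R 4.3.3 (trend, robust, Benjamini-Hochberg at 0.05), which was tested on simulated data. Differences are knockout minus control, and the p-values reflect only the spread among the libraries, which may be technical. The labels give no replicate numbers, so no pairing was used. Positions and exon lengths were read from GENCODE M21 (GRCm38), possibly another build than the authors'. Exons of 13 members overlap another annotated gene, 11 of them on the opposite strand, and 4 annotated pseudogenes carry a member's name. Such reads may be split or shared, depending on the counting.

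The members and lists were chosen with earlier results of these data known. Values in every library were set for Psmd13, the 8 members with the largest absolute log2 difference, the members without overlap and the catalytic subunits. Of the other lists, Nfe2l1, Nfe2l2 and up to 3 genes with the smallest p were allowed. Ptprc, Csf1r, Tyrobp, Cd3e, Emr1, Cd68, Lyz2, Laptm5, Cd79a, Tap1, Tap2, B2m, Shfm1 and Sirt3 were named after their values had been seen. The gene counts, class medians and member differences were recomputed with 2 other filters, pseudocounts of 1 and 32, 3 scalings, another variance estimate, library weights, the acinar markers as a covariate, and libraries left out. Levels per kilobase and catalytic shares were recomputed with the longest transcript only, and other lists, correlations and SDs with no alternative. Figures were drawn in Python 3.11.15 with matplotlib 3.10.9. A few items withheld for evaluation are not reported here.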

Additional observations from a re-analysis of the deposited data

Results flagged for a closer look

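In 13 of 98 groups of 5 libraries, 1 library stood apart from the other 4 by more than Dixon's critical value of 0.71 for the gap over the range. Chance marks about 1 in 20 groups of normally distributed values. Among tested genes the share was 12.0% of 92 groups for the members and 10.6% of 23420 groups for all genes, so the members were near the background. The groups are not independent, since the same libraries recur. Knockout 1 was the high library for 5 genes: Psmd13 at 1033.6 (next knockout 374.2), Psmb9 at 227.3 (next 9.8), Psmb10 at 28.4 (next 5.6), Psmc5 at 738.3 (next 358.8) and Psmd6 at 637.2 (next 455.8). Control 5 was the high library for Psmd14 at 262.3, Psmg1 at 163.2 and Psme2 at 287.2, and the low one for Pomp at 40.5 (next control 177.1). Control 2 was the high library for Psmc2 at 597.1, Psmd9 at 123.0 and Psme1 at 579.7, and control 4 for Psmd1 at 1062.4.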

How the results depend on the processing

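No proteasome gene was called in any of the 21 alternatives. Over all tested genes, 0 were called as reported and 1 with no variance trend and no robust estimate, without control 1 and without controls 2 and 5 (0 to 1 with single libraries left out). Members at an unadjusted p under 0.05 numbered 4 as reported, 3 to 4 with single libraries left out, and 2 at a minimum value of 50, where fewer members were tested. Genes at that level ran from 509 to 651 with single libraries left out, 404 with the acinar covariate and 745 with no filter. Members with a higher mean in the knockouts numbered 22 to 28.

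The median over all members was -0.02 without knockout 1, 0.13 without control 5 and 0.15 without controls 2 and 5. With single libraries left out, class medians ran from -0.10 to 0.12 for the core, -0.07 to 0.10 for the base, -0.06 to 0.14 for the lid, 0.37 to 0.60 for the chaperones and -0.28 to 0.13 for the activator caps (0.19 without controls 2 and 5). The lid was -0.09 with library weights. Only the chaperones kept their sign among these classes, and their median as reported was 0.65 for base assembly and -0.04 for core assembly. Of 46 member differences, 24 kept their sign in all settings (14 above 0, 10 below), and 22 turned in at least 1. Psmd13 ran from 1.25 with library weights to 1.89 without knockout 3. Psmd10 was 2.42 and Psmg4 -3.08 with a pseudocount of 1. The causes were not tested.

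No paired analysis was possible because the labels carry no replicate numbers. Psmd13, the gene that led to the choice of the family, was at 1.68 ± 0.44 (SE). Its p after Benjamini-Hochberg adjustment over 11711 genes was 0.881 by limma, while the authors' deposited table has 0.0352 from the same libraries. A gene chosen for its high values does not show how large a difference 5 libraries a group could detect. How large a difference limma could miss was not tested, so members not called cannot be read as unchanged.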
